A study of Danio rerio with 20 samples.

Results

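In the zebrafish retina at 42 hours post fertilization, 100 of 32520 annotated genes had their lowest levels in every library of sorted amacrine and horizontal cells. After a limit on level and some exclusions, 79 of them form the set described here. Levels are given as CPM, the count of a gene in a library per 1000000 counts over all Ensembl genes. A gene belonged to the set when its highest CPM in the 5 amacrine and horizontal libraries lay below its lowest CPM in the other 15 libraries, and its mean over those 15 was at least 5 CPM. Of 8708 genes with that mean, 91 met the first condition, which is 1.05%. From these, 7 genes that were highest in every photoreceptor library and 4 that were highest in every progenitor library were left out, and MCM3 was left out by name, which gave the 79 members. The values of the amacrine and horizontal libraries against the others therefore chose the members, and they are given below as a description with no test.

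Newborn retinal neurons leave the cell cycle as they differentiate, and the transcripts of the DNA replication and chromosome segregation machinery fall after the last division. Amacrine and horizontal cells are the inhibitory interneurons of the retina, and the transcription factor Ptf1a directs progenitors to these fates. Transcripts of Notch target genes of the her4 family mark cells that receive Notch signals and are held in a progenitor state.

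The study sorted 4 populations from the dissociated retinas of 1 line with 3 transgenes, so that every group carried all of them. The ath5 reporter was Tg(ath5:gap-RFP), the crx reporter was Tg(crx:gap-CFP) and the ptf1a reporter was Tg(ptf1a:gal4,UAS:gap-YFP). The embryos spent some hours at a lower temperature on the way and were anaesthetised with MS-222. Photoreceptors were positive for the ath5 and crx reporters and negative for ptf1a. Retinal ganglion cells had only the ath5 reporter, amacrine and horizontal cells had ath5 and ptf1a but not crx, and progenitors had none. The ptf1a reporter is driven through Gal4 and UAS, the ath5 regulatory region is the one of the gene now called atoh7, and a reporter protein can outlast the transcript of its gene. There were 5 libraries per group, each amplified by the SmartSeq-2 method from polyadenylated RNA of 500 cells, with 25 retinas pooled for a replicate. Amacrine cells and horizontal cells were not separated from each other, and cells that still divide were not removed from any gate. The labels do not say whether the replicates came from separate days or clutches, so p-values measure the spread between these libraries. In such bulk libraries, fewer cells of a type and less RNA per cell cannot be told apart.

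Total counts ran from 21.2 M to 30.8 M per library (M, counts in units of 1000000). Genes with at least 10 counts numbered 7031, 10721, 8822, 10860 and 12004 in amacrine and horizontal replicates 1 to 5, and 10070 to 13636 in the other 15 libraries. Replicates 1 and 3 of the amacrine and horizontal group thus held fewer genes than any other library. Of 27 amacrine and horizontal markers tested, 17 were higher than in photoreceptors, 16 higher than in progenitors and 4 higher than in ganglion cells, while 1, 1 and 0 were lower (edgeR quasi-likelihood test, Benjamini-Hochberg adjusted p under 0.05, 20 libraries). Over all genes tested, 3.94%, 5.61% and 0.224% were higher in these comparisons. TFAP2A, an AP-2 transcription factor of amacrine and horizontal cells, averaged 574.5 CPM there and 3.57, 14.5 and 4.96 CPM in photoreceptors, ganglion cells and progenitors. PTF1A transcripts averaged 174.3 CPM in the amacrine and horizontal libraries and 190.9 CPM in ganglion cells, so that gene did not separate these 2 groups (adjusted p = 0.98).

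The size of the set can be read against the same count for the other populations. By the same first condition with no genes left out, 42 of 8574 genes (0.49%) were lowest in every photoreceptor library, 101 of 8642 (1.17%) in every progenitor library and 1 of 8732 (0.0115%) in every ganglion cell library. Without the 2 amacrine and horizontal libraries that held the fewest genes, 144 genes met the full rule, which holds the 79 members by construction, since leaving out libraries of the lowest group can only loosen it. With libraries scaled by TMM factors, 58 genes met it, of which 54 were members. With DESeq2 size factors it was 57 genes, also with 54 members. All 79 members had their lowest group mean in amacrine and horizontal cells with TMM factors and with DESeq2 size factors. The choice of members by their low values there nearly fixed that outcome, so it does not test how far the set depends on scaling.

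Scaled by library totals, the members with counts there had a median log2 ratio of -1.82 between the amacrine and horizontal mean and the mean of the other 15 libraries. Over all genes with a mean of at least 5 CPM, that median was -0.20, and with TMM factors the medians became -1.66 and -0.04. The fold by which a member was lower ran from 1.61 for BUB3 upward, with a median of 3.43 over the 73 members that had more than 3 counts over the 5 libraries. Library by library, the median member stood at -2.62, -2.02, -2.38, -1.58 and -1.54 on the log2 scale in amacrine and horizontal replicates 1 to 5. All eligible genes stood at -1.17, -0.16, -0.52, -0.17 and -0.11 in those libraries. The members were thus lowest in the 2 libraries that also held the fewest genes, and they lay well below the median gene in each of the 5. The part of library complexity in the depth of the dip was not tested. In the other groups the median member was at -0.56 to -0.20 in ganglion cells, -0.08 to 0.38 in photoreceptors and -0.17 to 0.13 in progenitors.

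**Figure D1:**
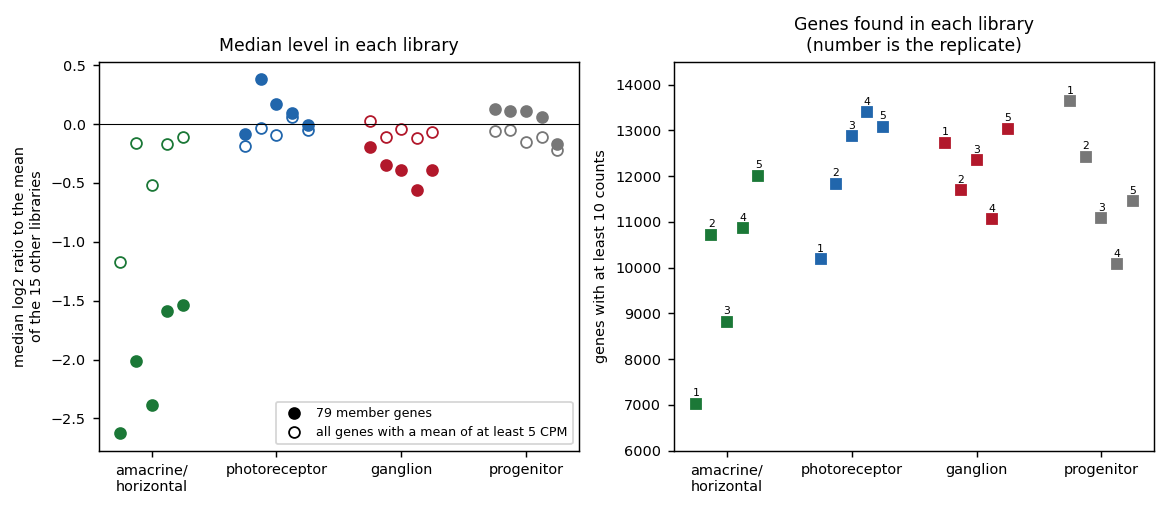
The left plot gives, for each library, the median log2 ratio to the mean of the 15 libraries outside the amacrine and horizontal group, with filled points for the 79 members and open points for all genes with a mean of at least 5 CPM. The right plot gives the genes with at least 10 counts in the same library, on an axis that does not start at 0. Members lie at -2.62 to -1.54 in the 5 amacrine and horizontal libraries, ganglion cell libraries lie below 0, and amacrine and horizontal replicates 1 and 3 hold the fewest genes.

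Roles were assigned to members only, so the counts by role have no share over all genes beside them. Among the members, 12 act in DNA replication, S phase control or the packing of new DNA. RPA2, a subunit of the replication protein A complex that coats single-stranded DNA, lies on chromosome 16 (GRCz11, 4746588 to 4770233, minus strand). It measured 172.6, 204.1, 183.5, 285.4 and 240.7 CPM in amacrine and horizontal replicates 1 to 5. It measured 395.2, 313.9, 406.8, 311.1 and 343.9 CPM in ganglion cells, 681.6, 807.6, 766.5, 577.1 and 628.1 CPM in photoreceptors, and 728.1, 619.7, 775.8, 777.3 and 477.4 CPM in progenitors. RPA2 in ganglion cells thus lay between the amacrine and horizontal libraries and the other groups. The gap on the lower side, 285.4 against 311.1 CPM, is required by the rule. On the upper side RPA2 did not overlap either, with at most 406.8 CPM in ganglion cells and at least 477.4 CPM in the other groups. Between the groups that the rule did not set apart, it was lower in ganglion cells than in progenitors by a log2 fold change of -0.97 (SE 0.15, adjusted p = 0.0011) and higher in photoreceptors than in ganglion cells by 0.98 (SE 0.15, adjusted p = 0.0011). Photoreceptors and progenitors differed by 0.01 (SE 0.15).

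RFC5 and RFC2 encode subunits of the clamp loader that places PCNA on DNA. RFC5, on chromosome 5, measured 100.1, 128.1, 116.8, 129.6 and 137.7 CPM in the amacrine and horizontal libraries and 216.9, 189.0, 184.2, 148.8 and 196.9 CPM in ganglion cells. Its photoreceptor libraries reached 284.3, 546.7, 484.9, 382.4 and 394.1 CPM and its progenitor libraries 369.9, 331.7, 323.3, 283.1 and 222.7 CPM. RFC5 had the same order as RPA2, with ganglion cells just above amacrine and horizontal cells and below every library of the other 2 groups. RFC2, on chromosome 21, measured 58.2, 85.6, 61.9, 75.9 and 143.0 CPM in the amacrine and horizontal libraries, 163.3 to 207.9 CPM in ganglion cells, 246.6 to 437.5 CPM in photoreceptors and 250.5 to 381.5 CPM in progenitors. Replicate 5 was the highest of the amacrine and horizontal libraries and came close to the lowest ganglion cell library. RFC5 shares exon bases with another gene, and the counting did not use strand.

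The 2 large subunits of chromatin assembly factor 1, which puts histones on newly copied DNA, were both members. chaf1a, on chromosome 22, measured 13.5, 88.4, 75.7, 94.2 and 74.0 CPM in the amacrine and horizontal libraries against 99.4 to 144.2 CPM in ganglion cells, 197.7 to 417.6 CPM in photoreceptors and 183.5 to 371.6 CPM in progenitors. CHAF1B, on chromosome 9, measured 37.5, 25.3, 19.4, 8.55 and 44.8 CPM against 47.6 to 86.1 CPM in ganglion cells, 78.4 to 179.0 CPM in photoreceptors and 127.1 to 164.1 CPM in progenitors. Both subunits were lowest in amacrine and horizontal cells, next in ganglion cells, and overlapped between photoreceptors and progenitors, and CHAF1B also overlapped between ganglion cells and photoreceptors. Their log2 differences between ganglion cells and progenitors were -1.03 (SE 0.22, adjusted p = 0.0111) for chaf1a and -1.24 (SE 0.25, adjusted p = 0.0064) for CHAF1B.

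CDCA7 and HELLS encode the partners of a nucleosome remodelling complex that takes part in DNA methylation. CDCA7, on chromosome 9, measured 68.8, 99.2, 52.7, 130.3 and 112.8 CPM in the amacrine and horizontal libraries, 201.7 to 266.2 CPM in ganglion cells and 333.3 to 708.2 CPM in progenitors. Its photoreceptor libraries measured 491.0, 264.3, 214.0, 174.1 and 217.1 CPM. Replicate 1 alone lay within the progenitor range, and the other 4 lay in or below the range of ganglion cells, unlike for RPA2. CDCA7 was lower than in progenitors by -0.91 in photoreceptors (SE 0.27, adjusted p = 0.0386) and by -1.15 in ganglion cells (SE 0.27, adjusted p = 0.0175). The photoreceptor call was kept in 13 of the 23 alternative fits and the ganglion cell call in all 23. HELLS averaged 69.1, 243.6, 146.1 and 268.4 CPM in amacrine and horizontal cells, photoreceptors, ganglion cells and progenitors, and was lower in ganglion cells than in progenitors (-0.91, SE 0.25, adjusted p = 0.038). That call was kept in 12 of the 23 alternative fits.

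CCNA2, which encodes the cyclin A2 that drives S phase and entry into mitosis, did not follow this order. It measured 149.7, 123.1, 209.1, 225.3 and 215.6 CPM in the amacrine and horizontal libraries, 341.4 to 536.4 CPM in photoreceptors, 392.2 to 613.3 CPM in ganglion cells and 449.7 to 590.3 CPM in progenitors. The lowest of the 15 other libraries was 1.52 times the highest of these 5, and the 3 other groups overlapped. The remaining genes of this role were RNASEH2B, which helps to clear ribonucleotides from DNA, the clamp loader partner CHTF8, the S phase transcription factor e2f2 and SKP2, which marks cell cycle inhibitors for destruction. RNASEH2B was lower in ganglion cells than in progenitors (-1.21, SE 0.21, adjusted p = 0.0022), and e2f2 was estimated at 0.15 in the same comparison (SE 0.27).

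**Figure D2:**
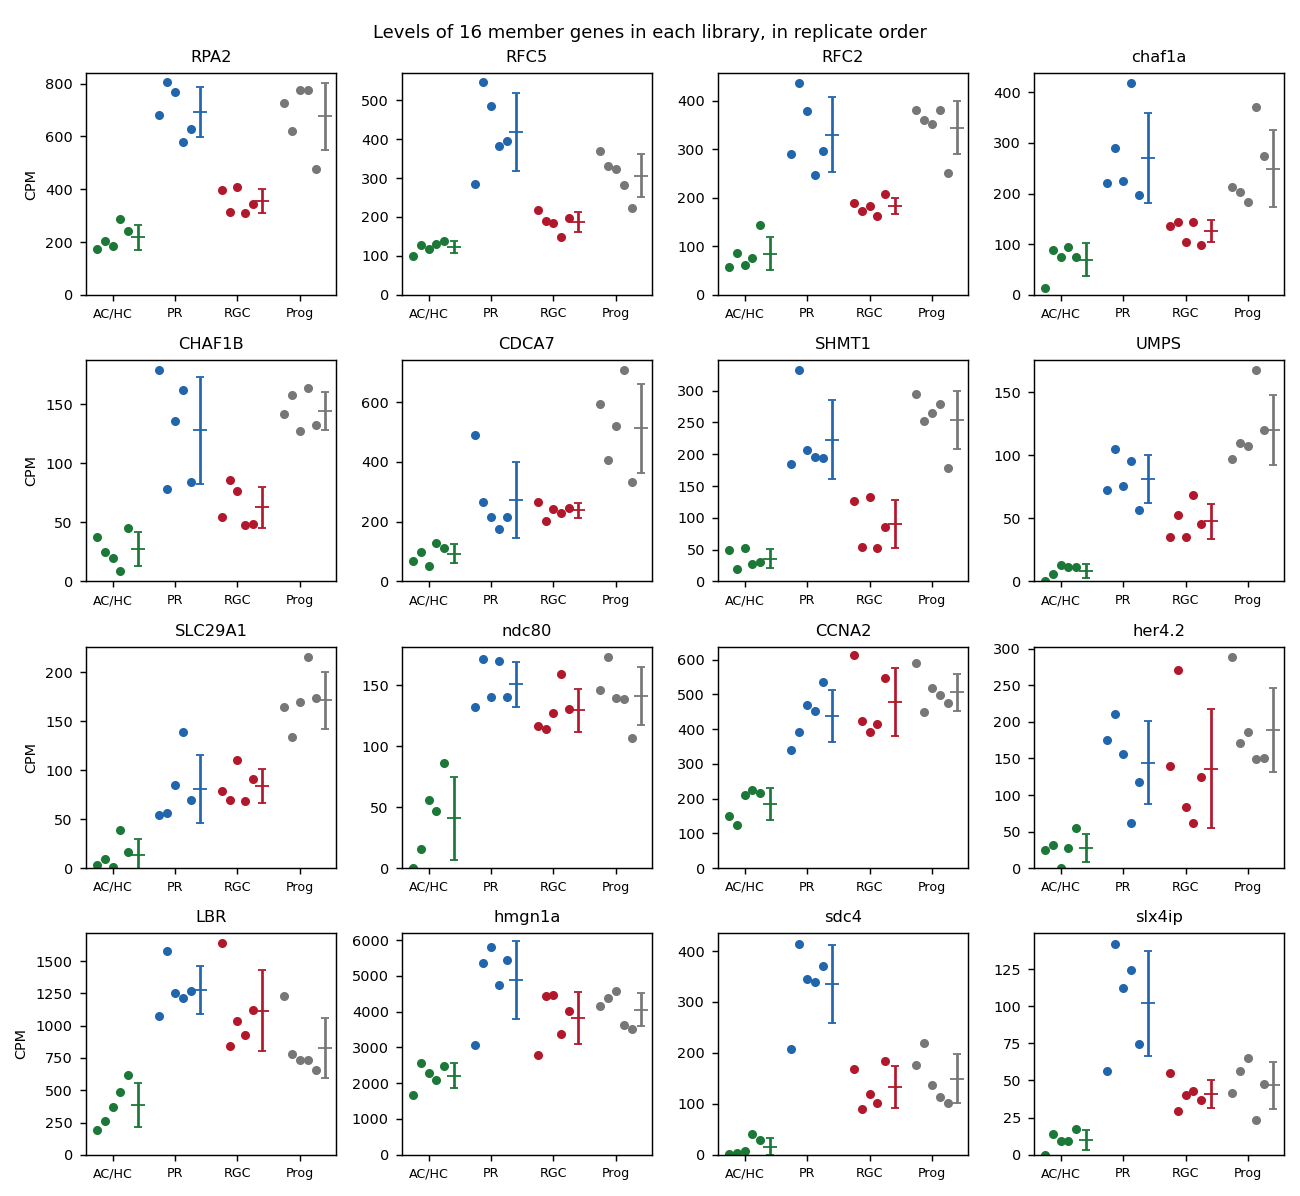
Each panel gives the CPM of 1 member gene in each of the 20 libraries, in replicate order from left to right within a group, with a bar for the mean and whiskers for 1 SD over 5 libraries, drawn down to 0 at most. AC/HC stands for amacrine and horizontal cells, PR for photoreceptors, RGC for retinal ganglion cells and Prog for progenitors. In RPA2, RFC5, RFC2 and chaf1a the ganglion cells lie between the lowest group and the other 2, while ndc80, CCNA2 and her4.2 overlap among the 3 other groups.

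The supply of nucleotides was represented by 4 members. UMPS, which makes uridine monophosphate in the last steps of pyrimidine synthesis, lies on chromosome 9 and measured 0, 6.30, 13.2, 11.3 and 11.3 CPM in the amacrine and horizontal libraries. It measured 35.2 to 68.8 CPM in ganglion cells, 56.6 to 104.9 CPM in photoreceptors and 97.4 to 167.4 CPM in progenitors. The gap to the lowest other library was 2.67-fold, and the 3 other groups stood in a graded order with some overlap between photoreceptors and their neighbours. UMPS was lower in ganglion cells than in progenitors by a log2 fold change of -1.37 (SE 0.24, adjusted p = 0.0022). SHMT1, the cytosolic enzyme that passes carbon units from serine to folate, measured 49.7, 19.4, 52.5, 28.0 and 30.4 CPM in amacrine and horizontal cells and 126.1, 54.8, 133.0, 52.8 and 85.1 CPM in ganglion cells. Its photoreceptor libraries lay at 185.4 to 332.7 CPM and its progenitor libraries at 178.2 to 294.3 CPM. SHMT1 entered the set by a margin of 52.5 against 52.8 CPM, since ganglion cell replicates 2 and 4 came down to the level of the amacrine and horizontal libraries. Its difference between ganglion cells and progenitors, -1.54 (SE 0.25, adjusted p = 0.0016), was the largest called in that comparison among the members.

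SLC29A1, an equilibrative nucleoside transporter on chromosome 13, measured 2.72, 9.35, 0.81, 39.3 and 16.3 CPM in the amacrine and horizontal libraries. Ganglion cells lay at 68.1 to 110.5 CPM, photoreceptors at 53.8 to 139.4 CPM and progenitors at 133.9 to 215.3 CPM. Photoreceptors and ganglion cells shared 1 range below most progenitor libraries, with log2 differences to progenitors of -1.15 (SE 0.23, adjusted p = 0.0035) and -1.08 (SE 0.23, adjusted p = 0.0089). The mitochondrial folate enzyme mthfd2 averaged 23.3 CPM in the lowest group and 80.3, 66.1 and 81.9 CPM in photoreceptors, ganglion cells and progenitors.

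A further 5 members were assigned a role in DNA repair or recombination, although a list of DNA repair genes that matched 81 genes held 0 members. Of its 69 genes with a mean of at least 5 CPM, 48 (69.6%) had their lowest group mean in amacrine and horizontal cells. Among all genes of that level outside the set, the share was 37.8%. The slx4ip gene, named for its binding to the nuclease scaffold SLX4, was found at 0, 14.3, 9.42, 9.38 and 17.3 CPM in the amacrine and horizontal libraries, 29.2 to 55.0 CPM in ganglion cells, 23.6 to 65.2 CPM in progenitors and 56.7 to 142.0 CPM in photoreceptors. In photoreceptors slx4ip exceeded ganglion cells by 1.31 (SE 0.29, adjusted p = 0.011) and progenitors by 1.06 (SE 0.28, adjusted p = 0.0241). The call against progenitors was kept in 18 of the 23 alternative fits. PSMC3IP, which acts in meiotic recombination, averaged 9.9 CPM in amacrine and horizontal cells, 25.9 CPM in ganglion cells, 58.9 CPM in photoreceptors and 56.9 CPM in progenitors, and it was lower in ganglion cells than in progenitors by -1.17 (SE 0.24, adjusted p = 0.0066). etaa1a, an activator of the checkpoint kinase ATR, averaged 2.8 CPM in amacrine and horizontal cells, with a 3.01-fold gap from its highest value there to the lowest of the others. TDP2, which frees DNA ends from topoisomerase, and FIGNL1 completed this role.

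Of the 6 members that act in mitosis, 0 passed the threshold between ganglion cells and progenitors, where edgeR gave 3 of them an unadjusted p under 0.05. ndc80, a component of the outer kinetochore, lies on chromosome 12 and measured 0, 15.4, 56.2, 46.7 and 86.2 CPM in the amacrine and horizontal libraries. It measured 132.4, 171.6, 140.4, 169.9 and 140.0 CPM in photoreceptors, 116.5, 114.2, 127.0, 158.9 and 130.1 CPM in ganglion cells and 146.2, 173.0, 139.8, 138.8 and 106.6 CPM in progenitors. The 3 other groups overlapped fully, and only the amacrine and horizontal libraries stood apart, with a spread from 0 to 86.2 CPM among themselves. Its estimated log2 difference was -0.16 between ganglion cells and progenitors (SE 0.14, adjusted p = 0.65). cenpk, of the inner kinetochore, and haus4, of the augmin complex that branches spindle microtubules, were higher in photoreceptors than in ganglion cells, both by 1.03 (SE 0.20 and 0.24, adjusted p = 0.0052 and 0.0156). The condensin subunit NCAPG, the spindle checkpoint protein BUB3 and the kinetochore protein ZWILCH differed among the 3 other groups by less than the test could call. BUB3 had the smallest dip of all members, from a mean of 109.5 to 123.9 CPM in the other groups to 72.4 CPM.

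Lists of pathway genes show how far genes outside the set shared this pattern. The list of replication and S phase genes matched 59 genes, of which 7 were members (RPA2, RFC2, RFC5, chaf1a, CHAF1B, CDCA7 and CCNA2). Of the 52 that were not members, 46 (88.5%) had their lowest group mean in amacrine and horizontal cells, against 37.8% of all 8629 genes of that level outside the set. Against photoreceptors 24 of the 52 were lower in amacrine and horizontal cells and 0 were higher, beside 4.77% of all genes tested that were lower and 3.94% that were higher. Against progenitors 25 were lower and 1, RRM2B, was higher, beside 5.51% lower and 5.61% higher over all genes. Against ganglion cells 0 of the 52 passed the edgeR threshold in either direction, while 8 were lower at an unadjusted p under 0.05, and over all genes tested 0.6% were called lower and 0.224% higher. Their summed level was 2280 to 3403 CPM in amacrine and horizontal cells, 3257 to 4728 CPM in ganglion cells, 7699 to 9349 CPM in photoreceptors and 7201 to 8144 CPM in progenitors. Ganglion cell replicate 4, at 3257 CPM, lay within the amacrine and horizontal range, and the other 4 lay above it.

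The list of mitosis and kinetochore genes matched 89 genes with 5 members (NCAPG, cenpk, ndc80, BUB3 and ZWILCH). MIS12 and spc24, also on the list, were lowest in every amacrine and horizontal library and had been left out of the set as highest in photoreceptors, so they are not counted here. Of the 77 others with a mean of at least 5 CPM, 60 (77.9%) had their lowest group mean in amacrine and horizontal cells. Of the 79 others tested, 7 were lower there than in photoreceptors, 5 than in ganglion cells and 15 than in progenitors, beside 4.77%, 0.6% and 5.51% of all genes, and 1, FZR1, was higher than in photoreceptors. The 5 that were lower than in ganglion cells were plk1, CCNB1, CDC20, kif2c and KIF22, named after their values were seen, all of which act in the progress through mitosis. The summed level of the 84 genes outside the set, MIS12 and spc24 included, was 5505 to 7361 CPM in amacrine and horizontal cells, 9754 to 11493 CPM in ganglion cells, 7736 to 11922 CPM in photoreceptors and 9169 to 11097 CPM in progenitors. Without these 2 genes the sums were 5384 to 7222, 9553 to 11267, 7381 to 11507 and 8896 to 10842 CPM. For mitosis genes the ganglion cells thus lay among the higher groups, and for replication genes they lay next to the lowest group.

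**Figure D3:**
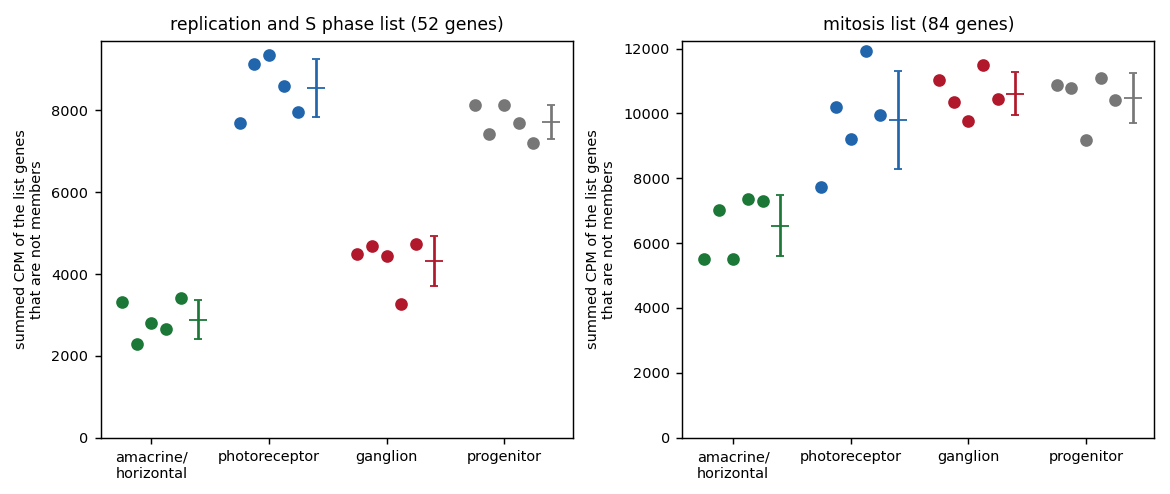
Each point is 1 library, and its height is the summed CPM of the list genes outside the set, 52 for replication and S phase and 84 for mitosis. Bars give the mean and whiskers 1 SD over 5 libraries. In the replication list, ganglion cells at 3257 to 4728 CPM lie below the 2 other groups, and 1 of the 5 lies within the amacrine and horizontal range of 2280 to 3403 CPM, and in the mitosis list they overlap with photoreceptors and progenitors.

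Chromatin and the nuclear envelope account for 9 members. A fixed list of chromatin regulators matched 119 genes and held 1 member, CBX1. Of its 100 others with a mean of at least 5 CPM, 31.0% had their lowest mean in amacrine and horizontal cells, against 37.8% of all genes. hmgn1a, a protein that binds nucleosomes, lies on chromosome 15 and had the highest level of the set also per length, at 2425 CPM per kilobase of exon in the 15 other libraries. It measured 1673, 2561, 2274, 2079 and 2469 CPM in the amacrine and horizontal libraries and 2785 to 5819 CPM in the others. The lowest of these 15 was a ganglion cell library only 1.09 times above the highest amacrine and horizontal library. LBR, the lamin B receptor of the inner nuclear membrane, measured 193.6, 265.4, 366.8, 488.4 and 614.4 CPM in amacrine and horizontal cells. It reached 1076 to 1577 CPM in photoreceptors, 844.9 to 1645 CPM in ganglion cells and 656.2 to 1233 CPM in progenitors. LBR was the one gene of this role called between photoreceptors and progenitors, at 0.60 (SE 0.18, adjusted p = 0.0481), and the call was kept in 7 of the 23 alternative fits.

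Of the others, CBX1, a reader of heterochromatin, MORF4L1, a subunit of histone acetyltransferase complexes, and rbb4l had shallow dips, of 1.71-fold, 1.77-fold and 1.78-fold. The nuclear pore list matched 70 genes, of which 2 were members, NUP37 of the outer ring and the membrane nucleoporin NDC1, beside 79 of all 8708 genes with a mean of at least 5 CPM. Of the 62 others of that level, 40 (64.5%) had their lowest mean in amacrine and horizontal cells, against 37.8% of all genes. Of 66 tested outside the set, 1, 1 and 11 were lower there than in photoreceptors, ganglion cells and progenitors. In the same order, 1, 0 and 0 were higher. Over all genes, 4.77%, 0.6% and 5.51% were lower and 3.94%, 0.224% and 5.61% higher. Photoreceptors and ganglion cells were themselves lower than progenitors for 11 and 9 of the 66, beside 4.43% and 2.63% of all genes. The share with the lowest mean in amacrine and horizontal cells was 64.6% for ribosome biogenesis and 65.1% for centrosome and cilium. It was 69.6% for nucleotide metabolism without 1 left-out gene, but 14.6% for the proteasome. Against the same 3 groups, 1, 1 and 21 of 100 ribosome biogenesis genes were called lower and 2, 0 and 0 higher. Photoreceptors and ganglion cells were also lower than progenitors for 25 and 13 of these 100. For centrosome and cilium, 4, 0 and 3 of 96 genes outside the set were lower and 0, 0 and 2 higher. For nucleotide metabolism, 7, 0 and 13 of 52 were lower and 0 were higher. NUP37 was higher in photoreceptors than in ganglion cells by 0.95 (SE 0.21, adjusted p = 0.012), as was ATAD2, a bromodomain protein linked to replicating chromatin, by 0.85 (SE 0.21, adjusted p = 0.026). The ATAD2 call was kept in 17 of the 23 alternative fits. PCID2, of the complex that exports mRNA through the pore, averaged 60.4 CPM in amacrine and horizontal cells and 107.2 to 138.1 CPM in the other groups. NUP37, ATAD2 and CBX1 share exon bases with a neighbouring gene.

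The Notch targets her4.2, her4.3, her4.4 and her4.5 are members and lie within 1 stretch of chromosome 23 (GRCz11, 21455152 to 21471022). They are close copies of each other, and reads that matched several places were left out of the counts, so the share of each copy is uncertain. her4.2 and her4.3 also share exon bases with each other on the same strand. her4.2 measured 24.9, 31.8, 0.64, 27.7 and 54.5 CPM in the amacrine and horizontal libraries, 61.8 to 211.0 CPM in photoreceptors, 62.0 to 270.8 CPM in ganglion cells and 149.7 to 288.8 CPM in progenitors. her4.3 measured 2.14, 3.31, 4.86, 4.15 and 5.54 CPM against 8.18 to 30.1 CPM in the 15 other libraries. All 4 copies had their highest mean in progenitors and their next lowest in ganglion cells, and the groups outside the amacrine and horizontal cells overlapped. Adjusted p-values among those 3 groups ran from 0.156 to 0.983. The 4 copies were also the only members on an eye field and progenitor gene list. Without 3 left-out genes, it held 51 others with a mean of at least 5 CPM. Of these, 8 (15.7%) had their lowest mean in amacrine and horizontal cells, against 37.8% of all genes. Of 56 tested, 25, 5 and 17 were higher there than in photoreceptors, ganglion cells and progenitors, and 5, 1 and 6 were lower. Over all genes, 3.94%, 0.224% and 5.61% were higher and 4.77%, 0.6% and 5.51% lower. This list did not follow its name, and it also holds neurogenic genes such as atoh7, neurod1 and insm1a. Its 62 genes outside the set and not left out summed to 17156 to 20760 CPM in progenitors, the lowest group. Their sums were 26337 to 31495 CPM in amacrine and horizontal cells, 27525 to 33674 CPM in ganglion cells and 29054 to 54983 CPM in photoreceptors. The Notch list held 26 other genes with a mean of at least 5 CPM, of which 12 (46.2%) had their lowest mean in amacrine and horizontal cells. Its 36 genes outside the set, at any level, summed to 1744.5 to 2400.1 CPM there and 1910.9 to 2124.9 CPM in photoreceptors. Their sums were 2978.2 to 4061.9 CPM in ganglion cells and 3103.9 to 3850.2 CPM in progenitors. The Delta ligand dlb averaged 67.7 CPM there, 229.1 CPM in ganglion cells and 216.7 CPM in progenitors but 30.5 CPM in photoreceptors. Among the other Delta ligands on the list, dlc averaged 106.6, 23.9, 113.2 and 224.5 CPM in amacrine and horizontal cells, photoreceptors, ganglion cells and progenitors. DLD averaged 165.7, 152.0, 163.0 and 191.7 CPM in the same order, and dll4 averaged 2.3, 4.3, 10.9 and 11.8 CPM. Of these 4 ligands, named after their values were seen, dll4 had its lowest mean in amacrine and horizontal cells and the other 3 in photoreceptors.

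RNA processing and translation gave 10 members. The files hold 2 genes with the symbol PTBP1, the splicing repressor that holds back neuronal exons in dividing cells, and both were members. The copy on chromosome 2 measured 91.2, 30.1, 75.0, 6.07 and 75.1 CPM in the amacrine and horizontal libraries and 100.3 to 277.4 CPM in the others. The copy on chromosome 11 measured 0.68, 8.46, 30.2, 42.9 and 27.6 CPM and 47.4 to 244.3 CPM in the others. The libraries in which the copies dipped furthest differed, replicate 4 for the first and replicate 1 for the second. They were the only members among 101 genes of the splicing list, where 38.5% of the genes outside the set had their lowest mean in amacrine and horizontal cells, close to the 37.8% of all genes. cnbpa, which encodes a zinc finger protein that binds single-stranded nucleic acids, averaged 491.2 CPM in amacrine and horizontal cells and was lower in ganglion cells than in progenitors by -0.98 (SE 0.18, adjusted p = 0.0032). RPL7L1, a relative of a ribosomal protein, was lower than in progenitors by -0.49 in photoreceptors (SE 0.15, adjusted p = 0.0441) and by -0.52 in ganglion cells (SE 0.15, adjusted p = 0.0453). These calls were kept in 8 and 10 of the 23 alternative fits. The GTPase DRG1, the spliceosome proteins HTATSF1 and cd2bp2, the mitochondrial RNA binding protein grsf1 and nol12 of the nucleolus were lower by 1.89-fold to 2.83-fold.

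A further 18 members act in membranes, secretion and signalling. A fixed list of ER, Golgi and vesicle transport genes matched 139 genes and held 0 members. Of its 116 genes with a mean of at least 5 CPM, 25.0% had their lowest mean in amacrine and horizontal cells, against 37.8% of all genes. sdc4, a heparan sulphate proteoglycan of the cell surface, lies on chromosome 6 and measured 0.65, 4.09, 6.57, 40.4 and 28.6 CPM in the amacrine and horizontal libraries. It measured 207.7, 414.2, 345.4, 339.1 and 370.5 CPM in photoreceptors, 168.5, 89.1, 119.3, 102.4 and 183.6 CPM in ganglion cells and 175.6, 219.0, 136.8, 113.2 and 101.1 CPM in progenitors. The gap to the nearest other library was 2.21-fold, and only photoreceptor replicate 1 overlapped with the other groups. In photoreceptors sdc4 exceeded progenitors by 1.13 (SE 0.23, adjusted p = 0.0047) and ganglion cells by 1.34 (SE 0.24, adjusted p = 0.0027). YIPF1, a Golgi membrane protein, was also higher in photoreceptors than in progenitors, by 1.27 (SE 0.37, adjusted p = 0.0372), a call kept in 14 of the 23 alternative fits. It is the member with the narrowest margin of all, 7.2101 CPM in the highest amacrine and horizontal library and 7.2111 CPM in the lowest other.

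In this role, the kinase PKN2, PALS1, a scaffold of the Crumbs polarity complex, the lysosomal enzyme IDUA and the kinase PSKH1 averaged 0.5, 1.5, 0.3 and 2.4 CPM in amacrine and horizontal cells. Their means in the other groups were 8.3 to 14.8, 11.7 to 17.1, 6.7 to 11.3 and 13.7 to 19.4 CPM. ALG3, an enzyme that builds sugar chains for proteins, averaged 9.8 CPM against 45.0 to 53.5 CPM. None of these 5 genes was called in a comparison among the other groups, where for PKN2, PALS1, IDUA and PSKH1 the SEs were 0.40 to 0.64, so differences of that size were not detectable.

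Some members were close to absent. 4 genes had no count in any of the 5 amacrine and horizontal libraries. DHTKD1, a mitochondrial enzyme of lysine breakdown, measured 11.6 to 39.2 CPM in photoreceptors, 3.05 to 14.9 CPM in ganglion cells and 3.03 to 26.0 CPM in progenitors. Against the limit that 3 counts in each library would give, it was at least 120-fold lower. The same limit gave at least 103.5-fold for the sphingomyelin synthase SGMS1, at least 95.7-fold for ZFP36L1, which marks AU-rich mRNAs for decay, and at least 81.7-fold for mfge8a, which binds phosphatidylserine. A limit of 3 counts corresponds to 0.0972 to 0.131 CPM in these libraries and covers counting error only. In the lowest of the 15 other libraries, SGMS1 and ZFP36L1 had 1 count each and mfge8a had 5, so they belong to the set by a thin margin. GSTM3, RAB8B and the phosphatase DUSP12 had 3, 1 and 4 counts in all over the 5 libraries, and means of 7.4 to 11.7, 4.1 to 8.6 and 3.2 to 9.1 CPM in the other groups.

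Zeros differed from library to library and from gene to gene. Of the 79 members, 17, 12, 15, 10 and 7 had no count in amacrine and horizontal replicates 1 to 5, and 0 had none in any of the other 15 libraries, as the rule requires. Over all 32520 genes, 12531, 15110, 12929, 14654 and 16096 had at least 1 count in amacrine and horizontal replicates 1 to 5. The part of library complexity in the zeros of members was not tested. By gene, 53 members had counts in all 5 libraries, 10 had 1 library without, 7 had 2, 3 had 3 and 2 had 4. The lowest value of the 5 fell in replicate 1 for 38 members and in replicate 3 for 32, counting ties, and in replicate 5 for 7.

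**Figure D4:**
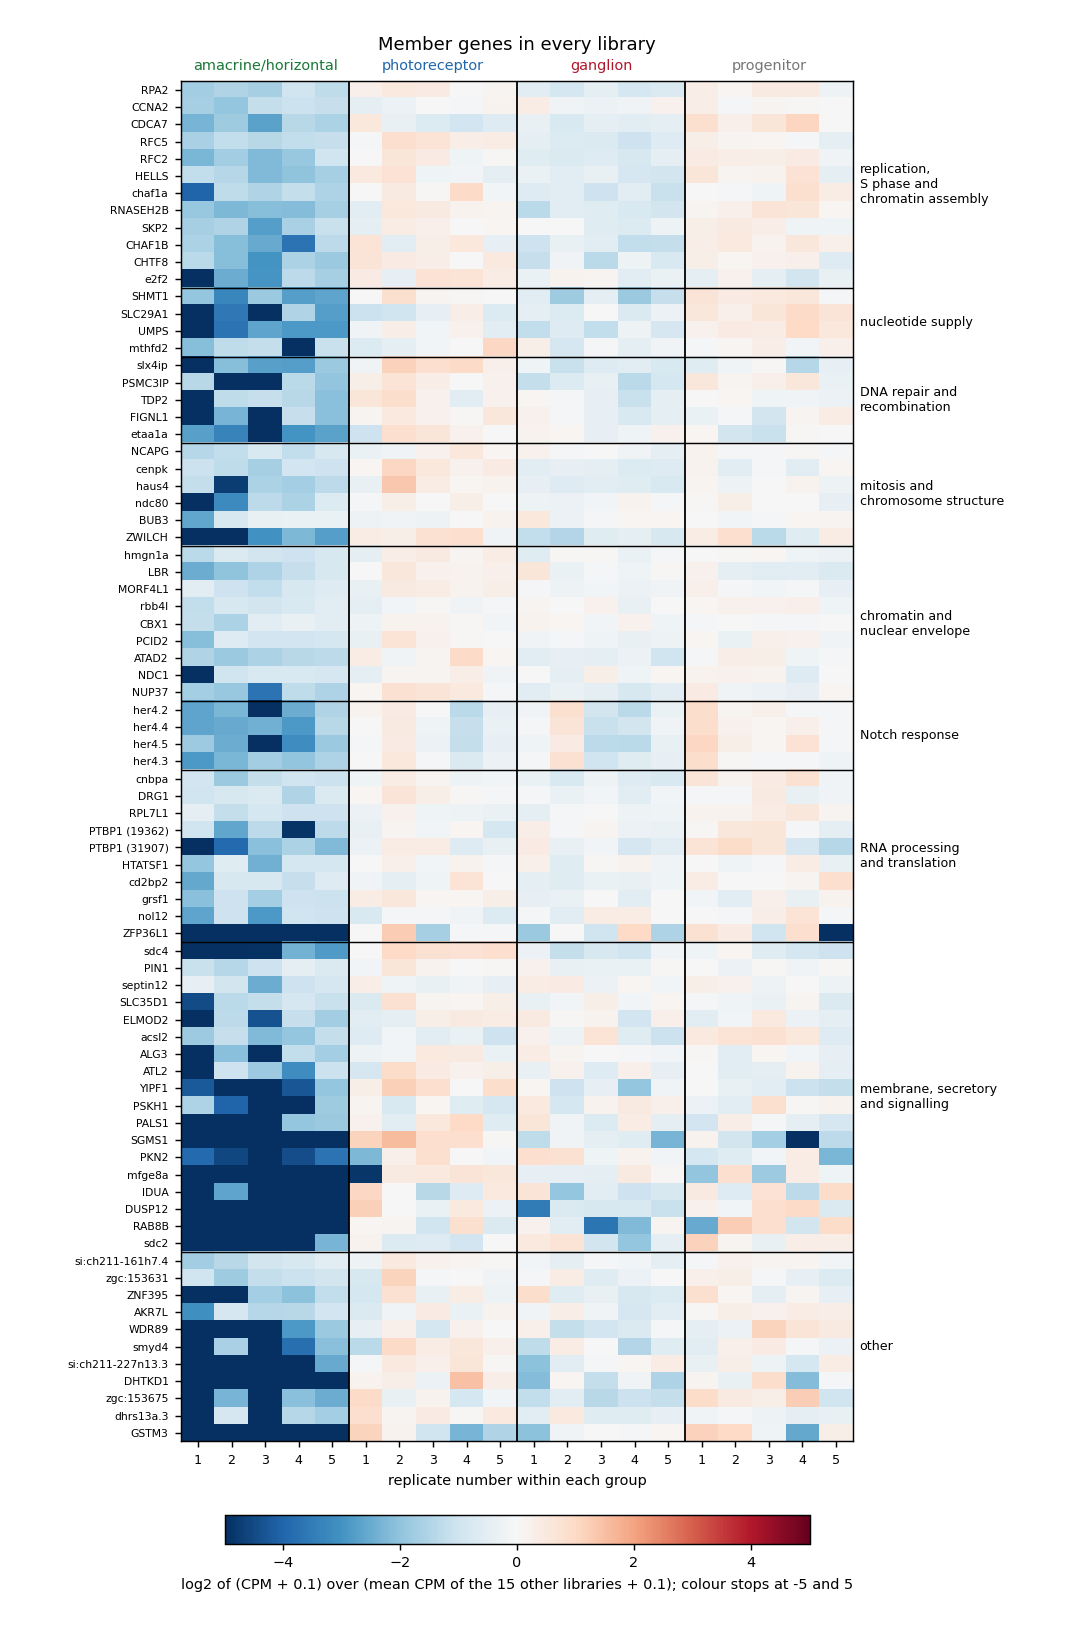
Rows are the 79 members by role and columns the 20 libraries by group and replicate, with the log2 of CPM plus 0.1 over the mean of the 15 other libraries plus 0.1 in colour, from dark blue at -5 or less to dark red at 5. The left block is blue throughout by the rule that chose the genes, and darkest in replicates 1 and 3 and among genes of membranes and signalling. Ganglion cells are pale blue for most genes of replication and S phase.

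The margins of the rule were thin at several places. Just above the mean of 5 CPM stood the second syndecan sdc2 at 5.76 CPM, RAB8B at 6.36 CPM and DUSP12 at 7.07 CPM, and just below it RMDN1 at 4.18 CPM and znf1158 at 4.05 CPM, with 1 unnamed gene at 4.28 CPM. By the gap between libraries, YIPF1, CHTF8 (35.43 against 35.58 CPM) and SHMT1 were the last inside. TTK was the first outside, with 105.3 CPM in the highest amacrine and horizontal library and 104.0 CPM in the lowest other, and it was followed by zgc:113030 and CCNE1. With values under 3 counts set to the limit of 3 counts, the gap was more than 2-fold in 8 members (DHTKD1, GSTM3, DUSP12, RAB8B, etaa1a, PKN2, UMPS and sdc4). In 2 members, SGMS1 and ZFP36L1, the lowest other library lay under that limit itself, and in 26 members the gap was less than 1.1-fold. The library that set the lower edge of the 15 others was a ganglion cell library for 46 members, a progenitor library for 18 and a photoreceptor library for 15.

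Differences among the 3 other groups were tested over 13340 genes in the 15 libraries. The rule also used values of these libraries, namely their lowest CPM and their mean. It limits what the test can show, because every group had to stay above the amacrine and horizontal libraries and genes wholly highest in 1 group were left out. Those left out were 7 genes highest in photoreceptors, 4 in progenitors and 0 in ganglion cells. The calls among members are therefore not independent of the rule. Between ganglion cells and progenitors, 14 of 79 members were lower in ganglion cells and 0 were higher, while 2.63% of all genes tested were lower and 3.4% higher. Among genes with a mean of at least 5 CPM, the shares were 3.63% and 4.37%. For the 0, 1 member was higher at an unadjusted p under 0.05, and DESeq2 and limma also called 0 higher, with 18 and 14 lower. The median log2 fold change of the members was -0.36 and that of all genes 0.02.

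Between photoreceptors and ganglion cells, 15 members were higher in photoreceptors, beside 2.59% of all genes, and 0 were lower, beside 2.44%. Among genes with a mean of at least 5 CPM the shares were 3.67% and 3.5%. At an unadjusted p under 0.05, 30 were higher and 0 lower, and DESeq2 and limma called 22 and 16 higher with 0 lower. The median was 0.37 for members and 0.00 for all genes. These comparisons share the 5 ganglion cell libraries and are not independent of each other. Counted once, 21 members were lower in ganglion cells than in at least 1 of the other groups and 8 were lower than in both (RPA2, RFC2, RFC5, chaf1a, CHAF1B, RNASEH2B, SHMT1 and PSMC3IP).

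Between photoreceptors and progenitors, 4 members were higher in photoreceptors (sdc4, slx4ip, YIPF1 and LBR) and 3 were lower (SLC29A1, CDCA7 and RPL7L1). The shares over all genes were 5.99% and 4.43%, and 7.0% and 5.77% among genes with a mean of at least 5 CPM, so the members were called about as often as other genes. With all 20 libraries in the fit, edgeR called 0 of the 7, with 9 members at an unadjusted p under 0.05. The calls in the ganglion cell comparisons became 7 and 6 in that fit.

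Ganglion cells had the lowest mean of the 3 other groups for 56 members (70.9%), against 28.6% of genes with a mean of at least 5 CPM. This held for all 11 members with no assigned role, of which edgeR called 0 in any of the 3 comparisons, with 3 at an unadjusted p under 0.05 in each comparison that involved ganglion cells. By role, replication and S phase gave 8 of the 14 genes that were lower in ganglion cells than in progenitors and 7 of the 15 that were higher in photoreceptors than in ganglion cells. The median log2 fold changes of those 12 genes were -0.93 and 0.92. The 4 genes of nucleotide supply had medians of -1.22 and 0.52 in the same comparisons, and the 18 genes of membranes, secretion and signalling 0.02 and 0.26. On the wider replication list, 35 of 59 genes were lower in ganglion cells than in progenitors and 34 were higher in photoreceptors than in ganglion cells, with 0 in the opposite directions, where 2 and 0 had an unadjusted p under 0.05. On the mitosis list, 3 of 86 genes were lower and 1 was higher in ganglion cells than in progenitors. In photoreceptors 8 were higher and 7 lower than in ganglion cells. These counts include the list genes left out of the set as highest in every photoreceptor library, and MIS12, 1 of them, is among the 8. Beside the shares over all genes, 2.63% lower and 3.4% higher in the first comparison, the adjusted calls on the mitosis list were near the background there. At an unadjusted p under 0.05 in edgeR, 17 of the 86 were lower in ganglion cells than in progenitors and 5 higher. Over all 13340 genes tested, 1113 were lower and 1437 higher at that level, so the list had the larger share of lower genes. In the second comparison the shares over all genes were 2.59% higher and 2.44% lower, so the mitosis list was called more often than all genes in both directions.

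**Figure D5:**
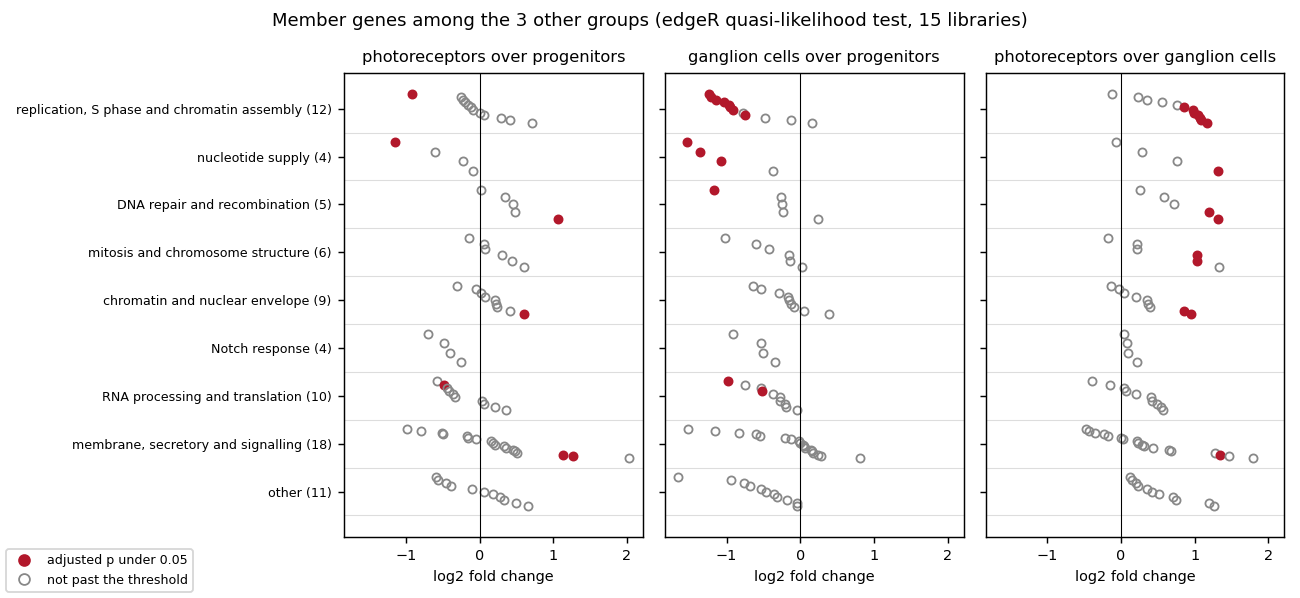
Each point is 1 of the 79 members, grouped by role with the number of members in brackets, at its log2 fold change in 1 of the 3 comparisons among the groups outside the amacrine and horizontal cells. Filled red points passed the threshold of an adjusted p under 0.05 in edgeR's quasi-likelihood test on 15 libraries. Called genes lie to the left in ganglion cells over progenitors, 14 in all, and to the right in photoreceptors over ganglion cells, 15 in all.

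Markers of other cell types also differed among the groups, but not all of them followed the group they are named for. Photoreceptor markers, 54 matched genes, summed to 7571 to 11563 CPM in photoreceptors, 3750 to 4183 CPM in ganglion cells, 2224 to 2975 CPM in amacrine and horizontal cells and 857 to 1190 CPM in progenitors. Ganglion cell markers, 47 matched genes, summed to 4375 to 7637 CPM in amacrine and horizontal cells and 3773 to 9277 CPM in ganglion cells, against 455 to 2508 CPM in photoreceptors and 834 to 1493 CPM in progenitors. They did not separate the first 2 groups. Of 39 tested in 20 libraries, 1 was higher and 0 were lower in amacrine and horizontal cells than in ganglion cells. Over all genes tested, 0.224% were higher and 0.6% lower. Mesenchyme and vessel markers, 38 matched genes that include tfap2a, summed to 417 to 843 CPM in amacrine and horizontal cells, 40.9 to 159 CPM in photoreceptors, 168 to 287 CPM in ganglion cells and 411 to 657 CPM in progenitors. In amacrine and horizontal cells that sum was mostly TFAP2A, whose mean is given above. There, the 14 markers with a mean of at least 5 CPM had a median log2 ratio of -6.05 to the mean of the 15 others. Compared with progenitors, 15 of 26 tested were lower in amacrine and horizontal cells, beside 5.51% of all genes. Of 25 tested without that group, 13 were lower in ganglion cells, beside 2.63% of all genes, and 13 were lower in photoreceptors, beside 4.43%. Blood and macrophage markers reached 2194 CPM in 1 amacrine and horizontal library and 6411 CPM in 1 progenitor library, and stayed at 5.91 CPM or less in photoreceptors and ganglion cells. The part of these cells in the differences among the members was not tested.

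The members were spread over 25 chromosomes with at most 6 on 1. Besides the 4 her4 copies, some members were close neighbours. NDC1 (26576853 to 26590628) lies next to YIPF1 (26598801 to 26604318) on chromosome 2. HELLS (8255106 to 8270718) lies next to ATL2 (8281223 to 8304605) on chromosome 13. Distances between members were not compared with those between other genes. Their median summed exon length was 2351 bases, against 2600 for all genes of that level, and 12 (15.2%) shared exon bases with another gene, against 16.3%. Their median level over the 15 other libraries, 70.6 CPM, was higher than the 28.3 CPM of all genes of at least 5 CPM. Promoter sequences were not analysed here.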

How the data were processed

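The authors deposited 1 table of raw read counts per gene for the 20 libraries, with 32520 Ensembl genes and 92 spike-in sequences. Counts were made with featureCounts 1.6.3 on Ensembl release 95 gene models, without strand, with a mapping quality of at least 1 and without reads that matched several places or several genes, per the file headers. The submitters' processing notes also name bcl2fastq 2.19.1, GSNAP and the builds GRCz11 and GRCz10. Symbols were matched for 29201 genes; those in capitals follow human names, and the Ensembl identifier defines the gene. Spike-ins were left out of totals and tests.

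CPM values were computed from the counts. The 3 comparisons among photoreceptors, ganglion cells and progenitors were tested with edgeR 4.0.16 (quasi-likelihood test, TMM factors, filterByExpr, R 4.3.3) on 15 libraries, with Benjamini-Hochberg adjustment over 13340 genes and a threshold of 0.05. Comparisons with amacrine and horizontal cells for list genes used all 20 libraries. limma 3.58.1 and DESeq2 1.42.0 were alternatives, as were other scalings, filters and left-out libraries, and the procedure was tested on simulated data. A limit of 3 counts stands for a count of 0.

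The members and the lists were chosen with earlier results of these data known. Named genes were members on a list, the 15 members with the widest gap, the 10 with the highest level, the called members with the largest changes, and the genes at the edges of the rule. Other named members were added for their roles after their values were seen.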

Additional observations from a re-analysis of the deposited data

Results flagged for a closer look

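In 9 of 88 groups of 5 libraries examined, 1 library stood apart from the other 4 by Dixon's gap criterion, and chance flags about 1 in 20 groups. Progenitor replicate 1 was the highest of its group for LBR at 1233 CPM, with the next at 777.3 CPM, for her4.2 at 288.8 CPM, with the next at 186.8 CPM, and for her4.3 at 30.1 CPM, with the next at 17.1 CPM. The copies of her4 are not independent, since her4.2 and her4.3 overlap and share exon bases.

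Progenitor replicate 5 was the lowest of its group for RFC2, at 250.5 CPM with the next at 351.5 CPM. It was also the lowest for the median log2 ratio of the 79 members to their mean over the 15 libraries, at -0.17 with the next at 0.06. Photoreceptor replicate 1 was the highest of its group for CDCA7, at 491.0 CPM with the next at 264.3 CPM. Photoreceptor replicate 2 was the highest for SHMT1 at 332.7 CPM, and photoreceptor replicate 4 was the highest for DHTKD1 at 39.2 CPM. Amacrine and horizontal replicate 1, the library with the fewest genes, was the lowest for chaf1a, at 13.5 CPM with the next at 74.0 CPM.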

How the results depend on the processing

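The number of genes that met the rule changed with the amacrine and horizontal libraries used and with the scaling. Leaving out libraries of that group only loosens the rule and keeps the 79 members. With TMM factors or DESeq2 size factors, some of the members no longer met the rule, as given above. Leaving out 1 library at a time gave 77 to 163 genes, with 163 without amacrine and horizontal replicate 5 and 134 without replicate 4, since the highest of the 5 libraries sets the limit. Libraries of the later range of track numbers alone gave 160 genes, and leaving out amacrine and horizontal replicates 1 and 3, an alternative chosen after seeing the data, gave 144. The labels do not say what a track number is.

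Among members, 7 were called between photoreceptors and progenitors, against 0 with all 20 libraries in the fit, 4 with only the 2 groups compared and 4 with no filter on low counts. Leaving out 1 library gave 2 to 7, with 2 without photoreceptor replicate 3, 3 without photoreceptor replicate 2 or 5 or progenitor replicate 3 or 4, and 4 without progenitor replicate 2. The 14 calls between ganglion cells and progenitors became 7 with all 20 libraries and 12 to 16 with 1 library left out. The 15 between photoreceptors and ganglion cells became 6 and 12 to 16. The cause of the losses with 20 libraries was not tested. Of 36 results for a gene in a comparison, 13 were kept under all 23 alternatives, 13 more were lost only with all 20 libraries, and 0 reversed. Those lost only with all 20 libraries include every call of UMPS, SLC29A1, sdc4 and PSMC3IP. Same-numbered libraries had correlations of -0.06 to 0.16, which gave no clear pairing, and the labels do not say whether the numbers pair libraries. Some libraries correlated best with the library of the same number in the other group, and others did not. Library numbers run consecutively within each replicate number, but the labels do not say what such a set shares. With the replicate number as a block, 8, 15 and 17 members were called. Depth limits the members with few counts in their lowest other library, at most 10 counts in 4 of them.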
